A study of Rattus norvegicus with 33 samples.

Results

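Late lactation was set against the pre-pubertal mammary gland of the rat, gene by gene, within the only array batch that held both stages. Batch 2 of the series held 3 arrays of lactating glands and 4 arrays of pre-pubertal glands, which made 7 of the 33 arrays of the series, and all single-symbol genes were compared. The lactation group consisted of female Sprague-Dawley rats, an outbred strain, killed at lactation day 28, which was postnatal day 146. The pre-pubertal group consisted of females of the same strain killed at postnatal day 21. All of these animals were vehicle controls of a study on environmental chemicals and received olive oil by gavage, 0.5 mL per dose up to day 63 and 1 mL after it. RNA came from the fifth caudal glands of both sides and was extracted with the same kit (Promega) in both groups. Pups stayed with their dams until postnatal day 28, so the pre-pubertal rats had not been weaned. The animals of a group were killed on 1 day, and the cycle stage of the animals was not controlled. A further 6 pre-pubertal arrays and 3 arrays of adult nulliparous glands (postnatal day 181), all of batch 1, were used beside the main comparison. The series record counts 10 pre-pubertal animals while its protocol speaks of 5 animals per stage. Each array was therefore taken as 1 animal, and p-values measure the spread between arrays. Lactating rats were older and had been pregnant, so lactation, parity and age cannot be told apart between these groups.

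The mammary gland of a young female is a small tree of ducts in a pad of fat and connective tissue. During pregnancy the ducts grow alveoli, whose luminal cells make milk under the control of prolactin and the transcription factor STAT5, while basal myoepithelial cells contract to eject it. When suckling ends, STAT3 becomes active and the alveoli are removed in involution. The values below are log2 array values as deposited, and differences are lactating minus pre-pubertal glands with their standard errors (3 against 4 arrays). A gene is said to have risen or fallen where limma's moderated test gave an adjusted p under 0.05 over all genes tested.

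Of 18166 genes measured, 10986 exceeded the detection floor of 7.645, the median of single-symbol probe sets, in at least 3 of 33 arrays and were tested. In lactating glands 2333 genes rose (21.2% of genes tested) and 2006 fell (18.3%), 39.5% in all. Among them 743 rose and 931 fell by at least 2-fold, and 90 rose and 30 fell by at least 8-fold. The arrays of both groups did not overlap for 5094 genes (46.4%), of which 4155 were called. The median difference over all genes was 0.04. Of the genes called, 522 that rose averaged below the floor in pre-pubertal glands and 894 that fell averaged below it in lactating glands, where folds are less exact. The floor was passed by 60 of the genes tested only through lactation arrays and by 276 only through pre-pubertal arrays. Such genes entered the test through 1 of the groups, and their values are descriptions. Those named below are Hbegf, Il1rn, Kng1, Oprpn and Wfdc18 through lactation arrays and A2m, Agtr2, Cdh2 and Grem1 through pre-pubertal arrays. The counts of list members that fell include such genes, A2m, Cdh2 and Grem1 among them. How many each list held was not counted. The model of all 33 arrays with batch terms called 6148 genes (56%), and 4267 of the 4339 genes called within batch 2 were called there in the same direction, against 0 in the opposite one. Both fits share the 7 arrays of batch 2.

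Marker lists were read in each array before any gene group was compared. The mean of 23 luminal epithelium genes was 10.01, 10.49 and 10.28 in lactating glands, against 8.25, 7.87, 7.401 and 7.63 in pre-pubertal glands, so that the groups did not overlap. Lymphocyte genes varied among pre-pubertal glands. The mean of 16 B cell genes was 6.99, 7.09 and 6.96 in lactating glands, against 8.03, 8.33, 9.77 and 9.17 in pre-pubertal glands. Pre-pubertal replicates 9 and 10 stood above the other two in this list and in the list of 21 T cell genes, with means of 7.46, 7.28 and 7.15 in lactating glands, against 7.91, 8.32, 10.23 and 9.52 in pre-pubertal glands. In batch 1 the 6 pre-pubertal arrays ranged from 6.93 to 9.78 for B cells and from 6.86 to 10.09 for T cells. Pre-pubertal replicate 8 was the lowest there and lay below all 3 lactating glands in both lists, so the groups overlap in lymphocyte genes once all 10 pre-pubertal arrays are counted. With replicates 9 and 10 left out, 3821 genes were called. The mean of 18 skeletal muscle genes was 8.30, 6.56 and 9.32 in lactating glands, against 6.74, 7.02, 6.77 and 9.91 in pre-pubertal glands. It was high in lactation replicates 1 and 3 and in pre-pubertal replicate 10, so that the groups overlapped. A covariate for the muscle mean left 4080 calls and one for the B cell mean 2754. In whole glands, fewer cells of a type and less RNA per cell cannot be told apart.

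**Figure D1:**
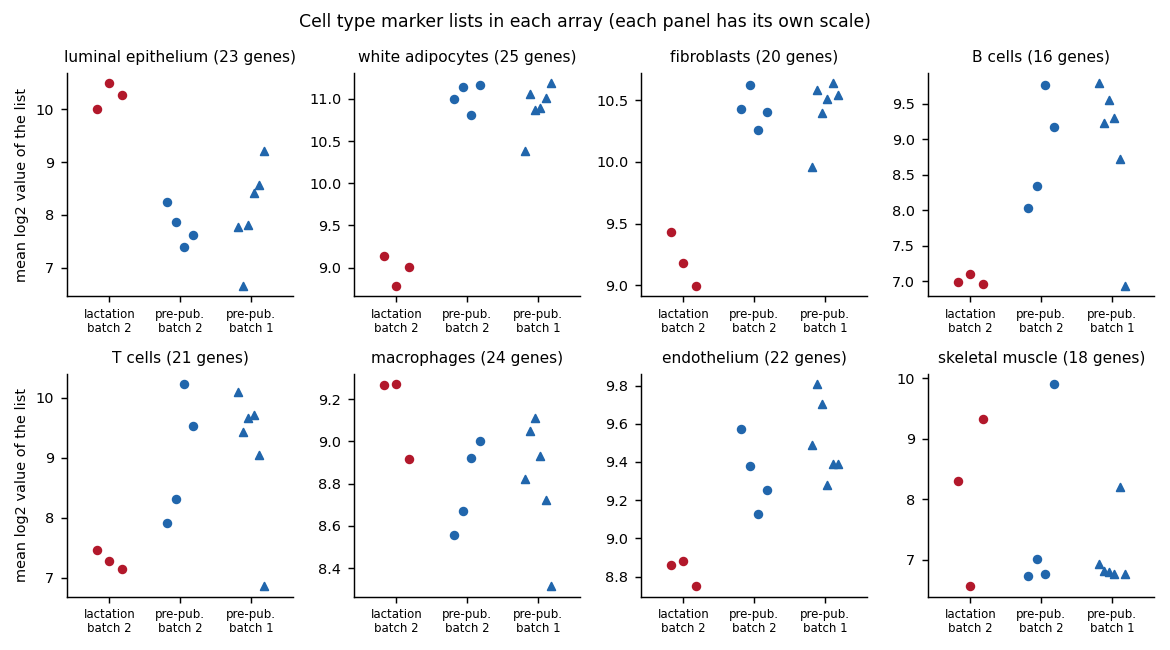
Mean log2 value of 8 cell type marker lists in each array, with the 3 lactation arrays left, the 4 pre-pubertal arrays of batch 2 in the middle and the 6 pre-pubertal arrays of batch 1 right (triangles). Luminal epithelium means stood higher and white adipocyte and fibroblast means lower in lactation than in all 10 pre-pubertal arrays, while skeletal muscle means overlapped.

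Milk protein genes held the 5 largest rises of the comparison. Of 22 genes listed, 20 were measured and 18 tested, of which 17 rose and 0 fell, with a median difference of 3.41 against 0.04 over all genes. One member, Wfdc18, passed the floor only through the lactation arrays. Csn1s2a, an alpha-S2 casein, had 13.45, 13.87 and 13.68 in lactating glands, against 5.77, 5.27, 5.33 and 5.26 in pre-pubertal glands. Csn2, beta-casein, had 13.12, 13.48 and 13.20 in lactating glands, against 4.97, 4.95, 5.91 and 4.36 in pre-pubertal glands. Both genes were near the top of the array in all lactating glands and under the floor in all pre-pubertal glands. The differences were 8.26 ± 0.17 for Csn1s2a (adjusted p = 5.84e-09) and 8.22 ± 0.31 for Csn2 (adjusted p = 4.01e-07). Csn3, kappa-casein, which keeps the casein micelle in solution, had 13.62, 13.71 and 13.61 in lactating glands, against 6.28, 5.46, 5.93 and 5.50 in pre-pubertal glands. Csn1s2b had 13.87, 14.001 and 13.95 in lactating glands, against 6.37, 6.26, 6.12 and 6.61 in pre-pubertal glands. Neither overlapped between groups, with differences of 7.85 ± 0.20 and 7.60 ± 0.14. Wap, whey acidic protein, differed by 7.46 ± 0.14, and its means were 13.85 ± 0.16 in lactating glands and 6.39 ± 0.16 in pre-pubertal glands (SD).

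Some milk protein genes were already high in pre-pubertal glands and showed smaller differences. Csn1s1, alpha-S1 casein, had 13.69, 13.73 and 13.65 in lactating glands, against 11.82, 12.34, 11.93 and 11.56 in pre-pubertal glands. Glycam1, a mucin-like glycoprotein of milk and also of the venules of lymph nodes, had 13.58, 13.86 and 13.74 in lactating glands, against 10.69, 10.97, 12.84 and 12.52 in pre-pubertal glands. Lalba, alpha-lactalbumin, the subunit that turns a galactosyltransferase into lactose synthase, had 13.68, 13.79 and 13.58 in lactating glands, against 11.25, 10.76, 10.17 and 10.60 in pre-pubertal glands. All 3 genes rose without overlap of the arrays, by 1.78 ± 0.16, 1.97 ± 0.48 and 2.99 ± 0.21. Glycam1 was not called in the model of all arrays (2.01 ± 1.15, adjusted p = 0.14), nor was Csn1s1 in the fit of lactation and all 10 pre-pubertal arrays with a batch term (1.78, adjusted p = 0.0679). The highest value in the whole table was 14.228, so differences of genes near it may be compressed, which was not tested. Among antimicrobial proteins of milk, Lpo, lactoperoxidase, rose by 4.53 ± 0.15 with 12.08, 12.51 and 12.07 in lactating glands, against 7.65, 7.60, 7.60 and 7.92 in pre-pubertal glands. Ltf, lactoferrin, was measured below the floor and not tested.

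**Figure D2:**
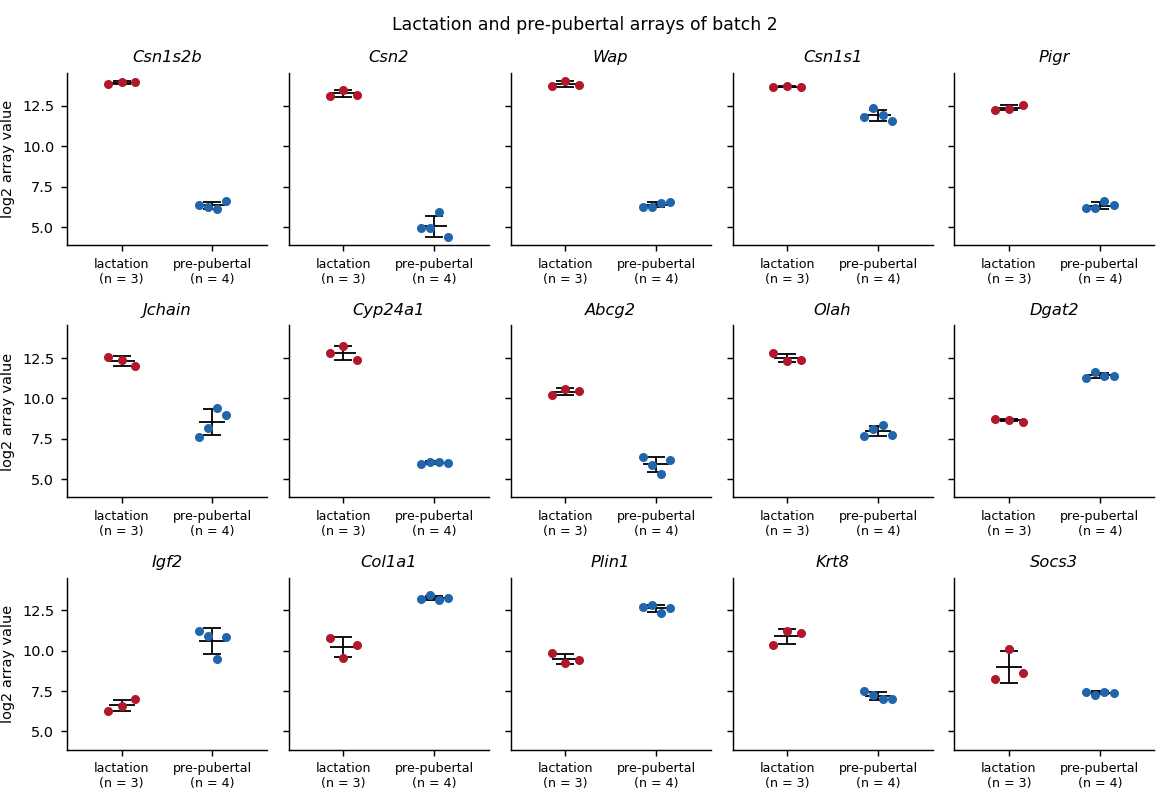
Log2 values of 15 genes in the 3 lactation arrays (left, red) and the 4 pre-pubertal arrays of batch 2 (right, blue), with bars for the mean and SD. Csn1s2b, Csn2 and Wap were under the floor of 7.645 in all 4 pre-pubertal arrays, whereas Csn1s1 was above it in all of them, and Socs3 spread widely among lactating glands.

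The casein genes lie together on chromosome 14, and 4 of 5 share a gapped motif at nearly the same distance from the start. The motif TTCNNNGAA, the form bound by STAT factors, reads the same on both strands, and it was searched in the RefSeq promoters of the GRCr8 assembly, from 250 bases before to 50 after each gene start. It occurs in 8.87% of 33469 promoters. The 150 bases before the start of each casein gene are shown 5' to 3' on the gene's strand because casein genes led the rises and 4 of the 5 share this site, which stands in capitals.
Csn1s2a: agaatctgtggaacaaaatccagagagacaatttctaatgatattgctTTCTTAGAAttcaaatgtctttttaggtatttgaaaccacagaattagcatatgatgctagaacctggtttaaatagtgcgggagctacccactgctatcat
Csn2: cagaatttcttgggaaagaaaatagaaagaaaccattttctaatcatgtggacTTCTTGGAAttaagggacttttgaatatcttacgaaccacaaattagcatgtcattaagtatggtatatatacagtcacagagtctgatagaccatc
Csn1s2b: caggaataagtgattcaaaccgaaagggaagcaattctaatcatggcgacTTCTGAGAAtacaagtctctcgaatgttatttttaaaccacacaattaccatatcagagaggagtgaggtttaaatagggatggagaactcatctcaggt
Csn1s1: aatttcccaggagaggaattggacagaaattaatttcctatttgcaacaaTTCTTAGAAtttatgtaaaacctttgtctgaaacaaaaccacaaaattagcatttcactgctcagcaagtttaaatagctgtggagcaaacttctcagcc
Csn3: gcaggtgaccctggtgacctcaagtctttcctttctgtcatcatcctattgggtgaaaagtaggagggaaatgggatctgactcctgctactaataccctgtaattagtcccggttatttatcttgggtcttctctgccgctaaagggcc
These windows are chr14:20574472-20574621 (minus strand) for Csn1s2a, chr14:20601674-20601823 (plus strand) for Csn2, chr14:20545619-20545768 (minus strand) for Csn1s2b, chr14:20638850-20638999 (minus strand) for Csn1s1 and chr14:20439831-20439980 (minus strand) for Csn3. The motif began 102 bases before the start in Csn1s2a, 97 in Csn2, 100 in Csn1s2b and 100 in Csn1s1. No letters of this form are in the window of Csn3, nor in those of Wap and Lalba. The same 4 windows also share the letters AACCACA, 68, 63, 65 and 64 bases before the start in the same order, which 5.57% of promoters hold on either strand. Csn1s1 and Csn2 both carried the motif, 100 and 97 bases before the start. The Csn1s1 difference was 1.78 ± 0.16 and that of Csn2 8.22 ± 0.31. Among the 30 largest rises, 6 of the 26 genes with a listed promoter held the motif in any promoter, Csn1s2a, Csn2 and Csn1s2b among them. Among the 30 largest falls 0 of 23 did. The 8.87% above is a share of promoters and not of genes, so it is not directly comparable. These are descriptions of letters and say nothing of binding.

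The machinery around the milk proteins rose with them. Of 12 listed genes of the milk fat globule membrane, the coat of secreted fat droplets, 11 were tested, of which 9 rose and 0 fell (median 1.78). Muc15, a mucin of that coat, had 12.85, 12.10 and 12.94 in lactating glands, against 9.01, 8.75, 7.91 and 7.65 in pre-pubertal glands. Btn1a1, butyrophilin, which couples the droplet to the cell membrane, rose by 3.15 ± 0.32, Plin2, the coat protein of the droplet inside the cell, by 2.99 ± 0.12, and Xdh, xanthine oxidoreductase, by 2.14 ± 0.15. Of 40 genes of folding and secretion in the endoplasmic reticulum, 38 were tested, 21 rose and 1 fell (median 0.47). Creld2 rose by 1.13 ± 0.21, Manf by 1.02 ± 0.17 and the chaperone Hspa5 by 0.79 ± 0.15, while Creb3l1 fell by 0.81 ± 0.20. The number that rose was 13 without lactation replicate 1. For lactose, 4 of 10 tested of 13 listed genes rose and 0 fell (median 0.30). Besides Lalba these included B4galt1, the catalytic subunit of lactose synthase (1.06 ± 0.17), and the glucose transporter Slc2a1 (0.94 ± 0.14). Ugp2 and Galt of sugar nucleotide supply were not called (0.04 ± 0.16 and -0.32 ± 0.15), although Galt fell in the model of all arrays (-0.36 ± 0.11, adjusted p = 0.00675).

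Genes of fat synthesis moved in both directions. Of 32 listed, 30 were tested, of which 11 rose and 10 fell (median -0.26). Olah, the thioesterase that releases medium-chain fatty acids in the mammary gland, had 12.81, 12.31 and 12.38 in lactating glands, against 7.70, 8.12, 8.35 and 7.73 in pre-pubertal glands, a difference of 4.53 ± 0.19. Acsl4, an acyl-CoA synthetase, rose by 2.26 ± 0.16, and Me1, malic enzyme, which supplies NADPH, by 2.25 ± 0.27. Dgat2, which adds the last fatty acid of triglycerides, had 8.71, 8.69 and 8.56 in lactating glands, against 11.24, 11.63, 11.40 and 11.41 in pre-pubertal glands. It fell without overlap (-2.77 ± 0.12), as did Agpat2 (-2.66 ± 0.13), the desaturase Scd2 (-1.94 ± 0.18) and lipoprotein lipase Lpl (-1.42 ± 0.09). The carboxylase Acaca and the citrate lyase Acly were not called (0.10 ± 0.32 and 0.29 ± 0.13). Several of the genes that fell are also strong in fat cells, and white adipocyte markers fell too, as given below. The part of fat cells in these differences was not tested. For sterol synthesis 22 genes were listed and 17 tested, and 8 rose while 0 fell (median 0.59). Squalene epoxidase Sqle rose by 1.06 ± 0.15, the lanosterol synthase Lss by 1.02 ± 0.17 and the farnesyl diphosphate synthase Fdps by 0.94 ± 0.15. The number that rose was 5 without lactation replicate 1 or 3.

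Transporters of amino acids split in a similar way. Of 30 listed, 26 were tested, of which 10 rose and 8 fell (median -0.03). Slc1a4 and Slc1a5 are closely related exchangers of neutral amino acids and moved oppositely. Slc1a4 had 11.04, 10.32 and 10.91 in lactating glands, against 8.14, 8.02, 7.74 and 8.22 in pre-pubertal glands, and Slc1a5 had 7.89, 8.46 and 7.53 in lactating glands, against 10.56, 10.58, 10.28 and 10.58 in pre-pubertal glands. In both genes the groups did not overlap, with differences of 2.73 ± 0.20 and -2.54 ± 0.21. Slc43a2 rose by 2.44 ± 0.22, the glutamate transporter Slc1a2 by 2.53 ± 0.35 and Slc3a2, the heavy chain shared by several transporters, by 1.14 ± 0.10. Slc36a2 differed by -3.10 ± 0.16 and Slc7a10 by -2.46 ± 0.23, and both fell.

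Genes that carry minerals, vitamins and water into milk rose more often than they fell. Of 46 listed, 34 were tested, 17 rose and 1 fell (median 0.62). Abcg2, which exports riboflavin and drugs into milk, had 10.19, 10.61 and 10.48 in lactating glands, against 6.39, 5.88, 5.30 and 6.18 in pre-pubertal glands, a difference of 4.49 ± 0.25. Folr1, the folate receptor, rose by 4.06 ± 0.21, the water channel Aqp3 by 3.44 ± 0.19 and carbonic anhydrase Car2 by 3.05 ± 0.15. Orai1, the calcium channel of store-operated entry, rose by 1.79 ± 0.22, whereas its sensor Stim1 fell by 0.92 ± 0.14. The 3 subunits of the epithelial sodium channel, Scnn1a, Scnn1b and Scnn1g, rose by 1.32 ± 0.16, 2.21 ± 0.27 and 2.01 ± 0.23. The pump Atp2b1 was not called (-0.07 ± 0.13). Atp2b2, the calcium pump known in mouse for loading milk with calcium, and the zinc transporter Slc30a2 were measured but stayed below the floor. Cyp24a1, the hydroxylase that inactivates vitamin D, had 12.81, 13.22 and 12.37 in lactating glands, against 5.92, 6.07, 6.09 and 6.02 in pre-pubertal glands. It rose by 6.78 ± 0.19 (adjusted p = 5.09e-08), and the lactation arrays stood far above the others.

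Antibody transfer into milk uses a receptor that carries dimeric IgA across the epithelium. This receptor, Pigr, had 12.25, 12.32 and 12.56 in lactating glands, against 6.18, 6.16, 6.598 and 6.38 in pre-pubertal glands. The groups did not overlap and differed by 6.05 ± 0.15 (adjusted p = 2.89e-08). Jchain, the joining chain of dimeric IgA made by plasma cells, had 12.56, 12.39 and 11.98 in lactating glands, against 7.61, 8.18, 9.42 and 8.98 in pre-pubertal glands and rose by 3.77 ± 0.38. Of the 12 tested of 17 listed genes for this transfer and for plasma cells, 6 rose and 1 fell (median 0.75). Fcgrt, the neonatal Fc receptor that carries IgG, was the one that fell (-0.97 ± 0.16). Markers of other B cells fell. Of 18 B cell genes listed, 16 were tested, 0 rose and 15 fell (median -1.71). Ms4a1, which encodes CD20, had 5.96, 6.08 and 5.64 in lactating glands, against 8.01, 8.52, 10.30 and 9.71 in pre-pubertal glands, and Cr2, complement receptor 2 of B cells and follicular dendritic cells, had 4.91, 5.50 and 4.77 in lactating glands, against 7.54, 8.33, 9.86 and 8.55 in pre-pubertal glands. All lactating glands were below all pre-pubertal glands in both, by differences of -3.24 ± 0.48 and -3.51 ± 0.46. With pre-pubertal replicates 9 and 10 left out, 13 of the 16 B cell genes fell. When the mean of the list itself entered as a covariate, 2 rose and 2 fell of the 16.

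T cell genes fell as well, 13 of the 21 tested of 24 listed, with 0 rises (median -1.53). Lef1 had 6.38, 6.49 and 6.68 in lactating glands, against 8.53, 8.83, 11.001 and 10.11 in pre-pubertal glands, a difference of -3.10 ± 0.52, and Tcf7 differed by -2.85 ± 0.44. Cd3e and Cd8a were not called (-1.30 ± 0.46 and -1.53 ± 0.55), although Cd3e fell without pre-pubertal replicate 4 or 5 (adjusted p 0.0109 to 0.0413) and Cd8a without pre-pubertal replicate 4 or 5 (adjusted p 0.013 to 0.0421). The model of all arrays called both lower, Cd3e (-1.77 ± 0.69, adjusted p = 0.03) and Cd8a (-1.79 ± 0.63, adjusted p = 0.0177). Without pre-pubertal replicates 9 and 10, 11 of the 21 fell. With single arrays left out the number that fell was 8 without lactation replicate 1 or 2 or pre-pubertal replicate 10, 7 without lactation replicate 3 and 20 without pre-pubertal replicate 4. With the B cell mean as a covariate the fitted direction turned, and 10 rose and 0 fell, Cd3e among the rises. That mean separated the groups of batch 2 without overlap, so this fit cannot tell stage and B cell content apart. Of 15 genes of lymph node chemokines and stroma, 12 were tested, 9 fell and 1, Glycam1, rose (median -1.66). Cxcl13, which draws B cells into follicles, had 9.37, 9.28 and 7.35 in lactating glands, against 12.01, 12.11, 12.55 and 12.21 in pre-pubertal glands and fell by 3.55 ± 0.43, and Ccl19 by 2.66 ± 0.48. The mean of this list was 8.70, 8.96, 10.06 and 9.63 in pre-pubertal replicates 4, 5, 9 and 10, and like the lymphocyte means it was highest in replicates 9 and 10. Cxcl13 was also highest in replicates 9 and 10 of these arrays, over a narrower range. Its lowest value in any pre-pubertal array was 11.99, in replicate 8 of batch 1, where the lymphocyte means were lowest too. Whether a lymph node lay in the tissue was not tested.

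Other immune cells gave a mixed picture, while 21.2% of all genes tested rose and 18.3% fell. Macrophage genes, 24 tested of 26 listed, rose in 10 cases and fell in 6 (median 0.46). Gpnmb, a glycoprotein of lipid-laden macrophages, had 11.87, 11.35 and 12.01 in lactating glands, against 8.69, 7.93, 8.41 and 8.43 in pre-pubertal glands and rose by 3.38 ± 0.21, and the chemokine receptor Cx3cr1 rose by 1.91 ± 0.36. Markers of resident tissue macrophages were among those that fell, namely Timd4 (-2.14 ± 0.27), Lyve1 (-1.62 ± 0.17, also a gene of lymphatic vessels) and Mrc1 (-0.88 ± 0.19). Mmp12, macrophage elastase, had 11.38, 11.92 and 11.52 in lactating glands, against 5.79, 6.14, 6.29 and 6.51 in pre-pubertal glands, with a difference of 5.42 ± 0.20. For cytotoxic cells 9 of 15 listed genes were tested, of which 3 rose and 1 fell (median -0.08). Gzma, granzyme A, had 9.36, 8.89 and 8.43 in lactating glands, against 5.17, 4.48, 4.74 and 4.97 in pre-pubertal glands and rose by 4.05 ± 0.25, while Prf1, perforin, was not called (-0.39 ± 0.51). Of these 9 genes the number that rose was 1 without lactation replicate 3, and the number that fell was 0 without lactation replicate 1, 2 or 3 or pre-pubertal replicate 5, 9 or 10 and 3 without pre-pubertal replicate 4. Of 18 tested dendritic cell and MHC class II genes (19 listed), 2 rose and 2 fell, and Cd74, the invariant chain, was not called (-0.20 ± 0.25). The number that fell was 0 without lactation replicate 2 or 3, 6 without pre-pubertal replicate 4 and 1 without pre-pubertal replicate 9 or 10. With the B cell mean as a covariate 7 rose and 0 fell of the cytotoxic genes, and 11 rose and 0 fell of the MHC class II list. These counts carry the same limit, since that mean did not overlap between the groups.

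Epithelial genes rose almost without exception in the luminal layer. Of 25 luminal epithelium genes listed, 23 were tested, 22 rose and 0 fell (median 2.70). Epcam, an adhesion molecule of luminal cells, had 12.02, 12.23 and 12.20 in lactating glands, against 9.67, 9.14, 7.96 and 8.28 in pre-pubertal glands. Keratin 8 (Krt8) had 10.37, 11.20 and 11.07 in lactating glands, against 7.53, 7.25, 6.99 and 6.98 in pre-pubertal glands. The groups were apart in both genes, by 3.39 ± 0.36 and 3.69 ± 0.22. Krt7 had 8.97, 11.62 and 10.46 in lactating glands, against 7.67, 7.63, 6.64 and 7.37 in pre-pubertal glands, with a wide spread among lactating glands, and rose by 3.02 ± 0.53. The mean of this list separated the groups, and with it as a covariate 18 genes were called, so stage and luminal content cannot be told apart in these arrays. Alveolar and luminal progenitor genes, all 15 tested, rose in 10 cases and fell in 0 (median 2.44). Elf5, the transcription factor of alveolar cells, had 12.07, 11.55 and 12.15 in lactating glands, against 9.51, 9.04, 7.96 and 8.37 in pre-pubertal glands and rose by 3.21 ± 0.34, and Ehf by 3.05 ± 0.39. Of 20 tight junction and adhesion genes tested of 26, 11 rose and 4 fell (median 1.26). Claudins 3, 4, 7 and 8 of epithelial junctions rose (Cldn3 2.55 ± 0.23, Cldn4 3.28 ± 0.48, Cldn7 2.71 ± 0.23, Cldn8 3.09 ± 0.42). Those that fell were Cldn5 of endothelium (-1.64 ± 0.16), Cldn11 (-0.76 ± 0.15) and the mesenchymal cadherins Cdh2 (-1.90 ± 0.16) and Cdh11 (-1.79 ± 0.22). Cdh2 passed the floor only through pre-pubertal arrays, so its value is a description.

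Hormone-sensing and basal genes moved in both directions. Of 18 hormone-sensing luminal genes listed, 14 were tested, 4 rose and 2 fell (median -0.24), while 21.2% of all genes tested rose and 18.3% fell. Esr1, the estrogen receptor, Foxa1 and Areg, the ligand that relays estrogen in the duct, were not called (-0.26 ± 0.16, -0.36 ± 0.24 and -0.40 ± 0.17). The largest rise of the list was that of Cyp24a1, described above among transport genes. Pgr, the progesterone receptor, rose by 1.38 ± 0.32 but averaged 7.01 in lactating glands, below the floor, and the model of all arrays did not call it (1.26 ± 0.68, adjusted p = 0.119). Cited1 fell by 1.10 ± 0.21, a call lost in the fit of lactation and all 10 pre-pubertal arrays with a batch term (-1.10, adjusted p = 0.125). The number that rose was 2 without lactation replicate 1 or 3, and the number that fell was 4 without lactation replicate 1. Basal and myoepithelial genes, 20 tested of 24, rose in 8 cases and fell in 3 (median -0.02). Krt14 had 10.91, 9.68 and 8.95 in lactating glands, against 8.13, 7.78, 6.63 and 7.59 in pre-pubertal glands and rose by 2.32 ± 0.46, and Oxtr, the oxytocin receptor of milk ejection, by 1.13 ± 0.27. Lgr5, a receptor known from stem cells, fell by 1.43 ± 0.27. The contractile gene Myh11 was not called (-0.60 ± 0.24) but fell without pre-pubertal replicate 9 (adjusted p = 0.0242), in the model of all arrays (-0.64 ± 0.22, adjusted p = 0.015) and with the B cell mean as a covariate (-1.69, adjusted p = 0.0014). Among basal genes the number that fell was 1 without lactation replicate 3 or pre-pubertal replicate 5.

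**Figure D3:**
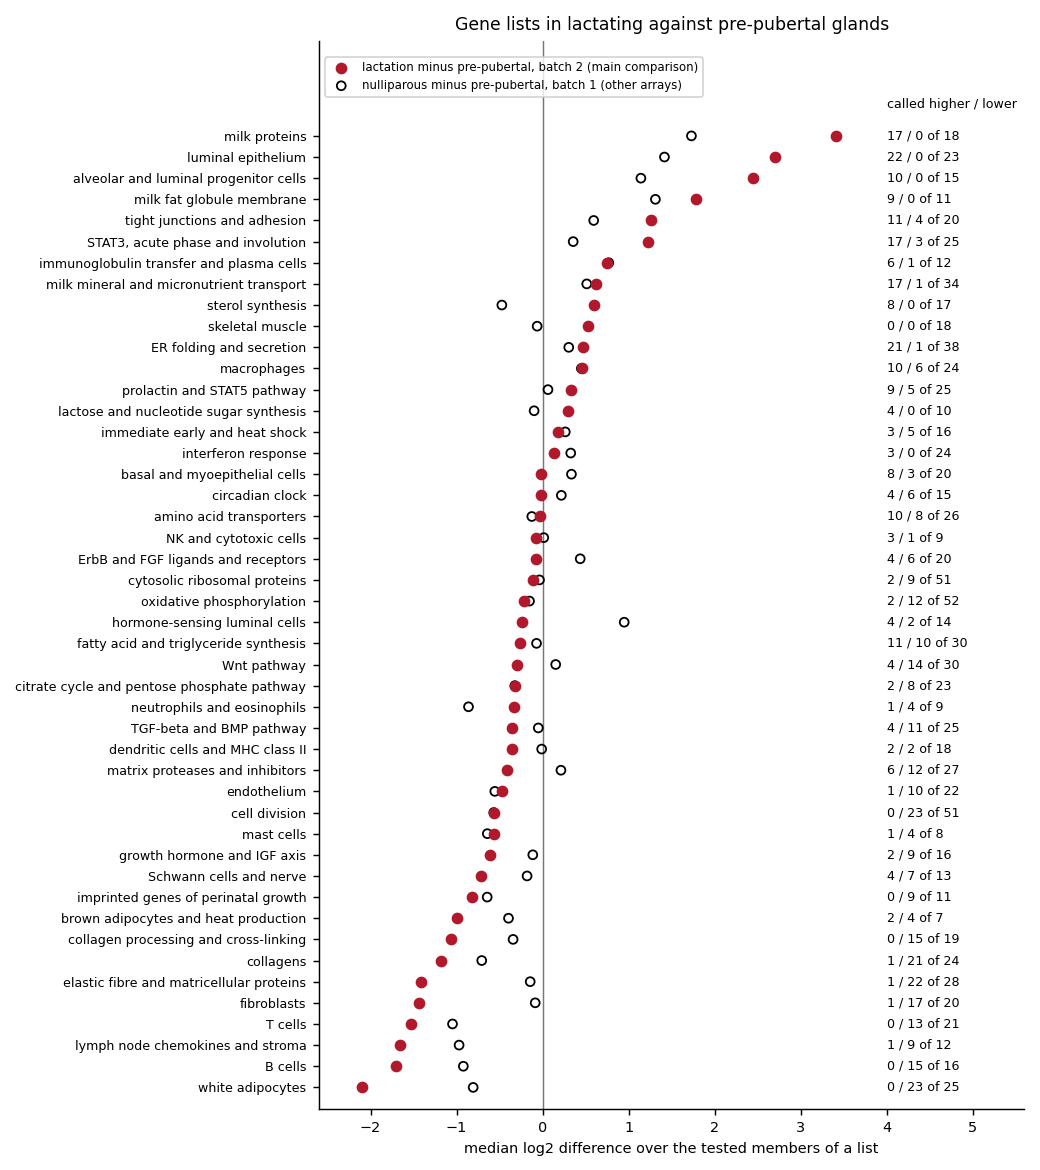
Median log2 difference of the tested members of each list with at least 7 of them, for lactation minus pre-pubertal glands in batch 2 (red) and nulliparous minus pre-pubertal glands in batch 1 (open circles), with the counts called higher and lower in lactation at the right. Milk proteins (3.41) stand at the top and white adipocytes (-2.10) at the bottom. Many lists have medians of opposite sign in both comparisons, among them sterol synthesis, hormone-sensing cells, matrix proteases and the Wnt pathway.

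Genes of the prolactin pathway moved in both directions. Of 25 tested genes (27 listed), 9 rose and 5 fell (median 0.33). Prlr, the prolactin receptor, had 8.70, 7.89 and 8.496 in lactating glands, against 8.03, 7.84, 7.002 and 7.48 in pre-pubertal glands and rose by 0.78 ± 0.27 (adjusted p = 0.0482). That call was lost without lactation replicate 1 or 3 or pre-pubertal replicate 5, 9 or 10 (adjusted p 0.0585 to 0.157). Stat5a and Stat5b were not called (0.60 ± 0.25 and 0.18 ± 0.12), although Stat5a rose without lactation replicate 2 (adjusted p = 0.00377) and in the model of all arrays (0.56 ± 0.17, adjusted p = 0.0075). The phosphatases Ptpn1 and Ptpn2, which dampen the pathway, rose by 1.04 ± 0.22 and 0.89 ± 0.18. Cav1, caveolin-1 (-1.61 ± 0.16), the growth hormone receptor Ghr (-1.41 ± 0.20) and cyclin D1, Ccnd1 (-0.70 ± 0.13), fell.

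Genes of STAT3, the acute phase and involution rose more widely. Of 29 listed, 25 were tested, 17 rose and 3 fell (median 1.23). Stat3 had 12.34, 12.91 and 12.26 in lactating glands, against 10.93, 10.76, 11.03 and 10.97 in pre-pubertal glands, and Osmr, the oncostatin M receptor that activates it, had 11.48, 12.38 and 11.47 in lactating glands, against 10.01, 9.78, 9.80 and 10.02 in pre-pubertal glands. Both rose, by 1.58 ± 0.16 and 1.88 ± 0.21, without overlap. Socs3, a target and inhibitor of STAT3, had 8.23, 10.08 and 8.61 in lactating glands, against 7.46, 7.24, 7.42 and 7.404 in pre-pubertal glands, with lactation replicate 2 above the other two, and rose by 1.59 ± 0.37. Tgfb3, a growth factor of involution in mouse, had 12.19, 12.05 and 12.25 in lactating glands, against 9.74, 9.33, 8.87 and 9.10 in pre-pubertal glands, and Lbp, which binds bacterial endotoxin, had 13.24, 12.92 and 13.25 in lactating glands, against 10.78, 10.10, 9.79 and 9.77 in pre-pubertal glands. These differed by 2.90 ± 0.19 and 3.02 ± 0.23, Nupr1 by 2.45 ± 0.18 and the protease cathepsin D, Ctsd, by 1.61 ± 0.13. Alpha-2-macroglobulin A2m was counted among those that fell (-1.68 ± 0.39), a description since it passed the floor only through pre-pubertal arrays. The shared receptor Il6st was not called (-0.09 ± 0.11). The number that fell was 1 without lactation replicate 1. The labels place these glands at the end of lactation and do not give the time since the last suckling.

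Genes that signal between stroma and epithelium moved in both directions. Of 44 Wnt pathway genes, 30 were tested, 4 rose and 14 fell (median -0.30). Axin2, a common target of the pathway, had 7.62, 7.09 and 7.17 in lactating glands, against 8.29, 8.54, 9.12 and 8.62 in pre-pubertal glands and fell by 1.35 ± 0.22, and the ligand Wnt5a fell by 1.24 ± 0.16. Axin2 was not called with the B cell mean as a covariate (-0.62, adjusted p = 0.188), and the lowest difference of the list was that of Lef1, also listed and described among T cell genes. Lgr4, a receptor that strengthens Wnt signals, rose by 0.83 ± 0.17. The number that rose was 2 without lactation replicate 2 or pre-pubertal replicate 9 or 10. Among ErbB and FGF ligands and receptors 20 of 28 were tested, 4 rose and 6 fell (median -0.08), and 1, Hbegf, passed the floor only through lactation arrays. Over all genes tested 21.2% rose and 18.3% fell. The receptors Erbb3, Erbb2 and Egfr rose by 2.24 ± 0.20, 1.54 ± 0.19 and 1.11 ± 0.26. The stromal ligands Fgf10 and Fgf7 fell. Fgf10, which drives branching of the embryonic bud in mouse, had 7.24, 6.79 and 7.30 in lactating glands, against 9.69, 9.83, 9.05 and 9.30 in pre-pubertal glands, a difference of -2.36 ± 0.21, and Fgf7 differed by -2.26 ± 0.23. Of 25 tested TGF-beta and BMP genes (32 listed), 4 rose and 11 fell (median -0.35). Tgfb2 rose by 2.005 ± 0.23. The BMP inhibitor Chrdl1 fell by 2.63 ± 0.17, and the BMP targets Id1 and Id3 by 1.22 ± 0.16 and 1.30 ± 0.18. The BMP inhibitor Grem1 was lower by 2.72 ± 0.29, a description since it passed the floor only through pre-pubertal arrays.

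White adipocyte genes fell with few exceptions. All 25 listed genes were tested, 0 rose and 23 fell (median -2.10). Plin1, the coat protein of the fat cell's droplet, had 9.86, 9.25 and 9.41 in lactating glands, against 12.70, 12.82, 12.30 and 12.65 in pre-pubertal glands. Adipoq, adiponectin, had 11.35, 10.92 and 10.97 in lactating glands, against 13.43, 13.39, 13.14 and 13.29 in pre-pubertal glands. Sncg, gamma-synuclein, had 9.04, 8.02 and 8.62 in lactating glands, against 11.78, 11.82, 12.13 and 12.04 in pre-pubertal glands. None of the 3 overlapped, with differences of -3.11 ± 0.17, -2.23 ± 0.12 and -3.38 ± 0.22. Leptin, Lep, fell by 1.601 ± 0.38 and the lipase Lipe by 1.498 ± 0.16. Values such as those of Adipoq remained well above the floor in lactating glands. Of 18 genes of brown adipocytes and heat production, 7 were tested, 2 rose and 4 fell (median -0.996). Those that rose were Cidea (1.74 ± 0.25), which also coats fat droplets in milk-making cells, and glycerol kinase Gk (3.71 ± 0.24). The uncoupling protein Ucp1 was measured below the floor.

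Collagen and other matrix genes fell together with fibroblast markers. Of 30 collagens listed, 24 were tested, 1 rose and 21 fell (median -1.18). Col1a1 had 10.77, 9.57 and 10.32 in lactating glands, against 13.17, 13.43, 13.12 and 13.28 in pre-pubertal glands, and Col3a1 had 11.02, 10.11 and 10.999 in lactating glands, against 13.01, 13.15, 12.92 and 13.09 in pre-pubertal glands. These fibrillar collagens fell by 3.03 ± 0.24 and 2.34 ± 0.20, the basement membrane collagen Col4a1 by 1.47 ± 0.15, and Col6a3 by 2.39 ± 0.15. The collagen that rose was Col17a1 of hemidesmosomes (0.76 ± 0.21), a call lost without lactation replicate 2 (adjusted p = 0.0568). Of 22 genes that process and cross-link collagen 19 were tested, 0 rose and 15 fell (median -1.07). The cross-linking oxidases Lox and Loxl2 fell by 1.87 ± 0.27 and 2.10 ± 0.16, the chaperone Serpinh1 by 1.57 ± 0.17 and the C-proteinase enhancer Pcolce by 2.63 ± 0.14. In the list of elastic fibre and matricellular proteins 28 of 35 were tested, 1 rose and 22 fell (median -1.42). Eln, elastin, had 8.37, 8.09 and 8.04 in lactating glands, against 11.15, 11.05, 10.47 and 10.77 in pre-pubertal glands and fell by 2.69 ± 0.18, and Sparc, a binder of collagen, fell by 1.498 ± 0.08. The 1 gene of this list that rose was no longer called without lactation replicate 1. Of 24 fibroblast genes 20 were tested, 17 fell and 1, Sfrp1, rose (median -1.44). Lum, lumican, fell by 2.08 ± 0.19, Dpt by 1.31 ± 0.15 and Pdgfra by 1.04 ± 0.17. Fibroblast list means were 9.43, 9.18 and 8.99 in lactating glands, against 10.43, 10.63, 10.26 and 10.41 in pre-pubertal glands, and the part of the number of fibroblasts in the fall of the matrix genes was not tested.

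Proteases of the matrix differed among themselves. Of 33 listed 27 were tested, 6 rose and 12 fell (median -0.42), while 21.2% of all genes tested rose and 18.3% fell. Besides Mmp12, the lysosomal cathepsins Ctsd, Ctsb and Ctsl rose by 1.61 ± 0.13, 0.82 ± 0.09 and 1.005 ± 0.14, and the inhibitor Timp1 by 1.61 ± 0.28. Ctsk fell by 1.37 ± 0.18 and Adam12 by 1.87 ± 0.13. The number that fell was 7 without pre-pubertal replicate 10. The stromelysin Mmp3 was not called (-0.42 ± 0.41).

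Growth genes of early life were lower in lactating glands. Of 20 imprinted genes of perinatal growth 11 were tested, 0 rose and 9 fell (median -0.82). Igf2, insulin-like growth factor 2, had 6.28, 6.57 and 6.999 in lactating glands, against 11.23, 10.89, 9.46 and 10.84 in pre-pubertal glands, and Plagl1, a zinc finger factor, had 7.39, 7.96 and 6.95 in lactating glands, against 10.59, 10.86, 10.10 and 10.74 in pre-pubertal glands. Nnat, neuronatin, had 7.92, 8.38 and 8.63 in lactating glands, against 11.49, 11.41, 12.18 and 12.20 in pre-pubertal glands. The groups did not overlap in any of these, with differences of -3.99 ± 0.38, -3.14 ± 0.25 and -3.51 ± 0.25. In the growth hormone and IGF axis 16 of 21 genes were tested, 2 rose and 9 fell (median -0.61). Igf1 fell by 1.51 ± 0.11 and the carrier Igfbp3 by 3.40 ± 0.24. Igfbp2 and Igfbp5 rose, by 1.78 ± 0.25 and 1.09 ± 0.23, and the receptors Igf1r and Insr were not called (0.10 ± 0.16 and 0.45 ± 0.21), although Insr rose in the model of all arrays (0.50 ± 0.16, adjusted p = 0.00825). Cell division genes, 51 tested of 60 listed, rose in 0 cases and fell in 23 (median -0.56). That count can include genes that passed the floor only through pre-pubertal arrays, whose values are descriptions. Top2a had 8.05, 7.18 and 7.27 in lactating glands, against 8.34, 9.03, 9.47 and 9.34 in pre-pubertal glands, a difference of -1.54 ± 0.30, and Cdk1 was not called (-0.13 ± 0.26). Mki67 differed by -1.16 ± 0.33, a call lost without lactation replicate 2 or 3 or pre-pubertal replicate 10 (adjusted p 0.0586 to 0.0812) and in the model of all arrays (-1.33 ± 0.63, adjusted p = 0.072). With single arrays left out the number that fell was 12 without lactation replicate 2, 14 without lactation replicate 3 and 13 without pre-pubertal replicate 10. With the B cell list mean as a covariate 2 rose and 2 fell of the 51, and with pre-pubertal replicates 9 and 10 left out 6 fell. In the model of all arrays 5 of the 51 fell.

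Vessel and nerve genes fell less evenly. Of 22 tested endothelial genes (26 listed), 1 rose and 10 fell (median -0.47). Plvap, the diaphragm protein of capillary pores, fell by 1.49 ± 0.13 and Cdh5, the cadherin of endothelium, by 0.62 ± 0.14, while the receptor Flt1 was not called (0.02 ± 0.26). Prox1, a factor of lymphatic vessels, rose by 1.14 ± 0.18. The number of endothelial genes that fell was 6 without lactation replicate 3 or pre-pubertal replicate 4 or 5. Of 13 Schwann cell and nerve genes tested of 18, 4 rose and 7 fell (median -0.72). S100b had 8.65, 8.30 and 8.46 in lactating glands, against 10.86, 10.79, 10.83 and 11.05 in pre-pubertal glands and fell by 2.41 ± 0.13, and Pmp22 by 2.42 ± 0.14. Erbb3 and Cnp, which epithelium also expresses, rose by 2.24 ± 0.20 and 2.18 ± 0.17. Of 18 tested skeletal muscle genes (27 listed) 0 were called, with Acta1 at 9.82, 8.88 and 11.13 in lactating glands, against 8.56, 8.53, 7.58 and 12.11 in pre-pubertal glands. Acta1 rose without pre-pubertal replicate 10 (adjusted p = 0.0382). The limma fit gave 1 of these 18 an unadjusted p under 0.05, and the model of all arrays called 1 of them, which fell. Haemoglobin genes fell (Hba-a1 -1.12 ± 0.17, Hbb-b1 -0.73 ± 0.17), 2 of the 2 tested of 11 listed.

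Genes of energy supply had small median differences. Of 57 genes of oxidative phosphorylation 52 were tested, 2 rose and 12 fell (median -0.22), with Cox5a at 0.76 ± 0.11 and Sdha at -0.75 ± 0.14. Of 29 genes of the citrate cycle and pentose phosphate pathway 23 were tested, 2 rose and 8 fell (median -0.32). Mdh1, cytosolic malate dehydrogenase, fell by 1.46 ± 0.19, and Taldo1, transaldolase, rose by 1.20 ± 0.13. In this second list the number that fell was 4 without lactation replicate 2 and 5 without pre-pubertal replicate 5 or 10. Of 76 ribosomal protein genes 51 were tested, 2 rose and 9 fell (median -0.12), while 21.2% of all genes tested rose and 18.3% fell. Most ribosomal protein genes have near-identical processed copies that the probes may not separate. The number of ribosomal genes that rose was 1 without lactation replicate 1, 2 or 3 or pre-pubertal replicate 5 or 10 and 0 without pre-pubertal replicate 4. With the B cell mean as a covariate 8 rose and 1 fell.

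Clock genes differed between the stages and between the comparisons. Of 19 listed 15 were tested, 4 rose and 6 fell (median -0.02). Npas2, a partner of the activator BMAL1, had 10.59, 10.33 and 10.88 in lactating glands, against 9.11, 9.27, 8.28 and 8.90 in pre-pubertal glands and rose by 1.71 ± 0.24, and Bmal1 itself by 0.54 ± 0.16, a call lost without lactation replicate 1 or 3 or pre-pubertal replicate 9 or 10 (adjusted p 0.0542 to 0.09). Per2, a repressor of the loop, had 7.13, 7.14 and 6.67 in lactating glands, against 8.57, 8.33, 8.19 and 8.45 in pre-pubertal glands and fell by 1.41 ± 0.17. Per1 fell by 1.93 ± 0.17, while Clock was not called (-0.01 ± 0.16). The number that rose was 2 without lactation replicate 1 or pre-pubertal replicate 9 or 10, and the number that fell was 3 without lactation replicate 3. In nulliparous glands of batch 1 Per2 was higher than in pre-pubertal glands (1.21 ± 0.15) and Npas2 lower (-0.57 ± 0.18), and the difference of the differences was -2.61 ± 0.22 for Per2 (adjusted p = 1.38e-08) and 2.28 ± 0.27 for Npas2 (adjusted p = 1.81e-06). The nulliparous arrays themselves differed between batches. Per2 had 10.31, 10.00 and 9.97 in batch 1 and 7.90 and 7.76 in batch 3. RNA of batch 3 was extracted with another kit (Zymo) than that of batch 1 (Promega). The hour of collection is not in the labels, and neither its part nor that of the kit was tested.

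The model of all 33 arrays moved the counts of some lists by more than 1.5 times. It called 7 dendritic cell and MHC class II genes lower, 16 endothelial genes, 17 ribosomal genes and 6 basal genes. Lower calls numbered 2 among cytotoxic genes, 2 in mineral transport, 2 in lactose and 1 in sterol synthesis. Higher calls numbered 4 in oxidative phosphorylation, 4 in the IGF axis, 1 among imprinted genes and 0 among lymph node genes. This model called 56% of all genes tested, against 39.5% within batch 2.

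Adding the mean of the B cell list to the model, a quantity that itself differed between the groups, moved the counts of further lists by more than 1.5 times. Over all genes tested it took the calls from 4339 to 2754, 1447 higher and 1307 lower, also a change of more than 1.5 times. The counts of single lists are to be read beside that general loss of calls. Of the folding and secretion genes 7 rose and 1 fell, of sterol synthesis 3 rose and 0 fell, of fat synthesis 6 rose and 9 fell and of tight junctions 6 rose and 3 fell. Among hormone-sensing genes 1 rose and 4 fell, and among basal genes 1 rose and 3 fell. For STAT3 and involution 10 rose and 1 fell, for the Wnt pathway 1 rose and 9 fell, for ErbB and FGF genes 2 rose and 7 fell and for matrix proteases 3 rose and 11 fell. In the lists of lymph node chemokines 2 rose and 3 fell, of Schwann cells 2 rose and 6 fell, of the citrate cycle 2 rose and 5 fell and of clock genes 0 rose and 2 fell. Of the IGF axis 0 rose and 8 fell, and of brown adipocytes 1 rose and 4 fell. Milk proteins (16 rose and 0 fell), luminal epithelium (19 rose and 1 fell), white adipocytes (0 rose and 21 fell) and collagens (0 rose and 17 fell) each kept the larger of their counts within 1.5 times. The B cell mean did not overlap between the groups of batch 2, so this model cannot tell the part of lymphocyte content from that of stage.

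**Figure D4:**
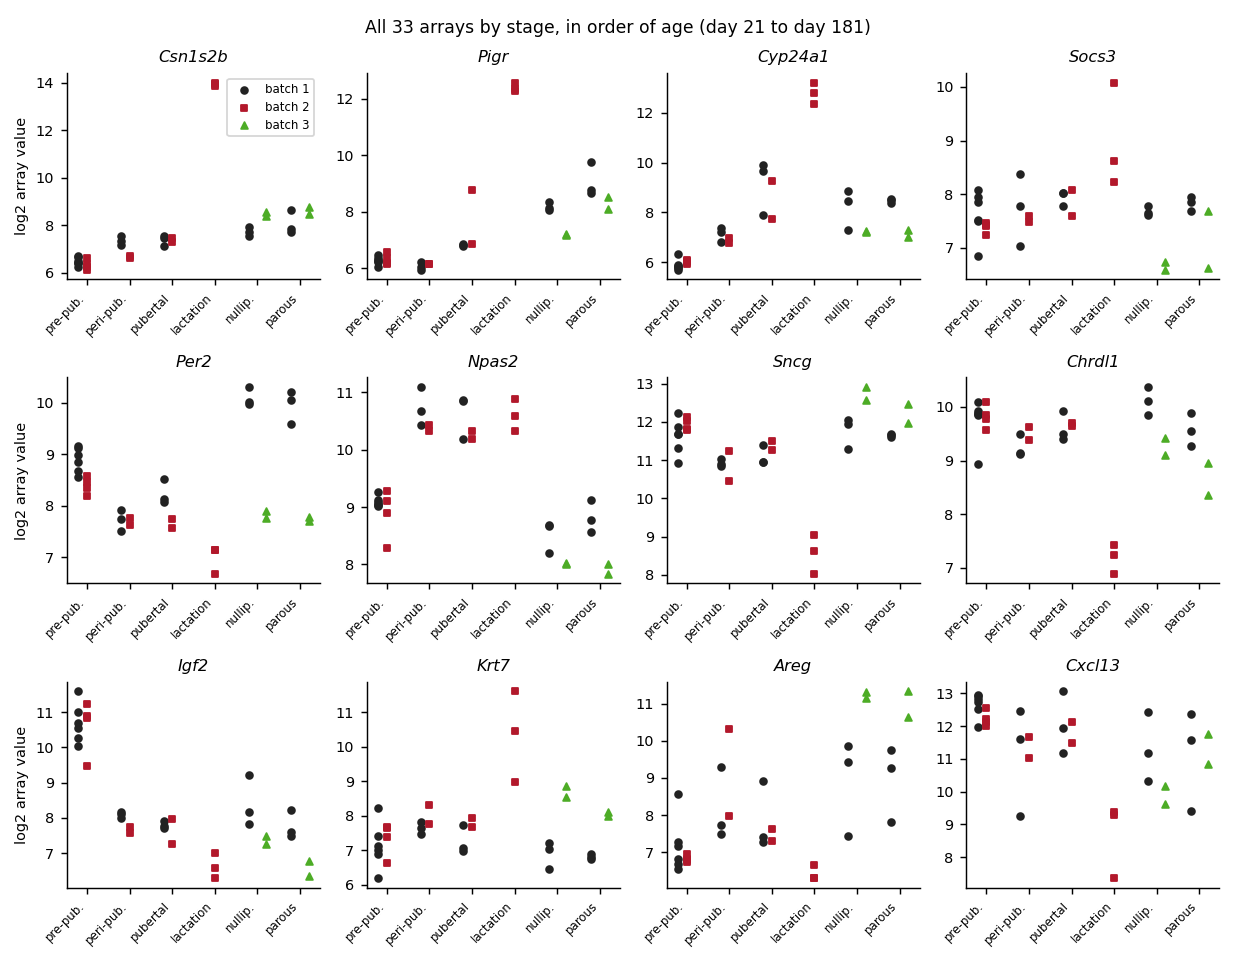
Log2 values of 12 genes in all 33 arrays, with stages in order of age and batches 1 to 3 as circles, squares and triangles. Csn1s2b, Pigr and Cyp24a1 stood apart in the 3 lactation arrays and Sncg and Chrdl1 were lowest there, whereas Igf2 was already lower from the peri-pubertal stage on, and Per2 differed between batches within the nulliparous and parous groups.

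How much of these differences an adult gland shows without lactation was asked with group means from arrays that the main comparison did not use. The spread came from a fit of all 33 arrays, those of batch 2 included. That fit had 22 residual degrees of freedom, against 5 in the main fit, so standard errors and shares of calls are not directly comparable. Nulliparous glands (3 arrays) were set against pre-pubertal glands (6 arrays) within batch 1, where 1297 genes were higher (11.8%) and 1116 lower (10.2%), 22% in all. Of the 2333 genes that rose in lactation 836 were also higher in nulliparous glands, 35.8% of the lactation list and 64.5% of the nulliparous one. Of the 2006 that fell 676 were also lower, 33.7% and 60.6% of those lists. In the opposite direction, 25 genes that rose in lactation were lower in nulliparous glands and 38 that fell were higher. The difference between both differences was then tested directly. It was above 0 for 1644 genes (15%) and below 0 for 1064 (9.69%), 24.6% in all. Stage and batch are crossed in this test only through the pre-pubertal arrays of both batches.

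Among milk proteins this test passed upward for 8 of 18 genes and downward for 1. Csn1s2b rose by 7.60 ± 0.14 in lactation against 1.25 ± 0.16 in nulliparous glands, a difference of 6.36 ± 0.23. For Wap these were 7.46 ± 0.14 against 3.89 ± 0.72, and for Lpo 4.53 ± 0.15 against 0.93 ± 0.18. Csn2, in contrast, was also high in nulliparous glands (6.23 ± 0.67), which left 1.99 ± 0.99 (adjusted p = 0.147) and did not pass. Csn3 was high there too (6.70 ± 0.24), but its remaining 1.15 ± 0.35 passed the test (adjusted p = 0.0186). Elf5 differed by 3.21 ± 0.34 in lactation and 3.15 ± 0.51 in nulliparous glands. Pigr (4.15 ± 0.37) and Cyp24a1 (4.47 ± 0.51) passed the test. Of the luminal epithelium genes 8 of 23 passed upward and 1 downward. Sterol synthesis passed upward in 11 of 17 and downward in 0, and 7 of its genes were lower in nulliparous glands, among them Nsdhl (-0.60 ± 0.14), which rose in lactation (0.63 ± 0.15). For the STAT3 and involution list 13 of 25 passed upward and 1 downward, with Socs3 at 0.05 ± 0.31 and Stat3 at 0.38 ± 0.14 in nulliparous glands.

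On the falling side, fibroblast genes passed downward in 14 of 20 cases, elastic fibre and matricellular genes in 17 of 28, white adipocyte genes in 15 of 25, collagens in 11 of 24 and imprinted genes in 6 of 11, with 0 upward in each of these lists. Sncg fell in lactation (-3.38 ± 0.22) and was not called in nulliparous glands (0.14 ± 0.23), and Chrdl1 gave -2.63 ± 0.17 and 0.35 ± 0.20. Igf2 fell in both, with -3.99 ± 0.38 in lactation and -2.29 ± 0.33 in nulliparous glands. For B cells the test passed in 1 of 16 genes and for T cells and cell division in 0 of 21 and 0 of 51, where limma gave 0 and 1 genes an unadjusted p under 0.05. In nulliparous glands 1, 0 and 1 genes of these lists were called lower and 0 higher. The median differences of the differences were -1.13, -0.48 and -0.04. The B cell mean ranged from 7.08 to 9.79 among nulliparous arrays of batch 1, so few passes do not show an equal fall. Fabp3, a fatty acid carrier, rose in lactation (1.78 ± 0.29) and more in nulliparous glands (4.10 ± 0.39). Clca1, a secreted protease of mucous epithelia, gave 4.18 ± 0.58 in lactation and 6.998 ± 0.46 in nulliparous glands, a difference of -2.82 ± 0.68.

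**Figure D5:**
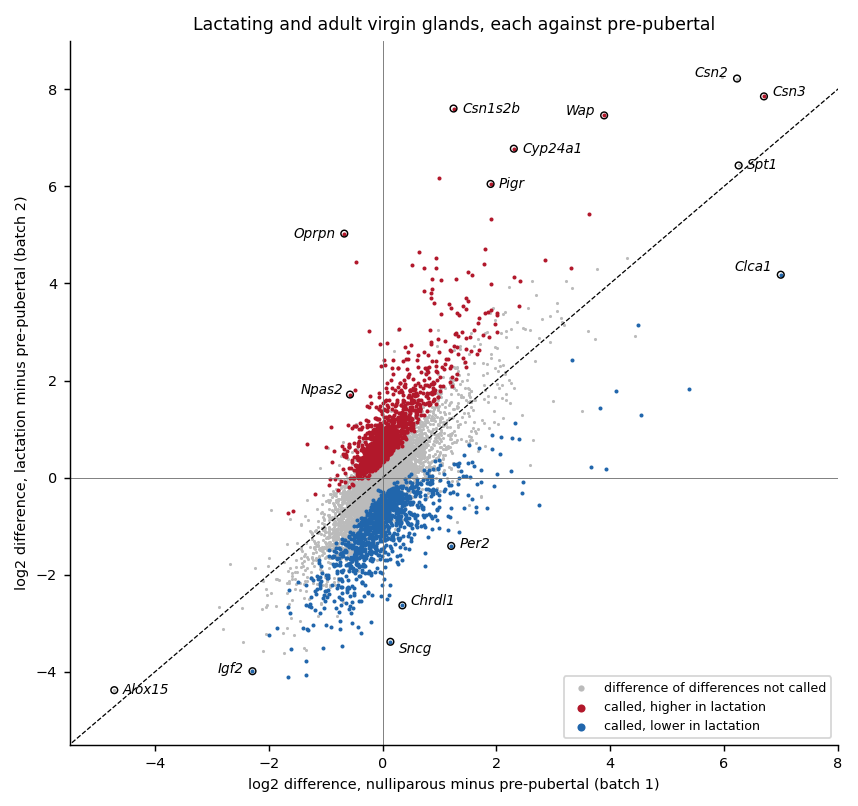
Log2 difference of 10986 genes in lactation minus pre-pubertal glands (batch 2, vertical axis) against nulliparous minus pre-pubertal glands (batch 1, horizontal axis), coloured by the test of the difference between both. Csn2, Csn3 and Spt1 were high on both axes, Csn1s2b, Pigr, Cyp24a1 and Oprpn mainly on the vertical one, and the dashed line marks equal differences.

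Further genes stood among the 30 largest rises without belonging to the milk lists. Spt1, a salivary protein, had 11.34, 10.82 and 9.62 in lactating glands, against 4.69, 4.05, 4.16 and 3.74 in pre-pubertal glands, and rose by 6.43 ± 0.38. Oprpn, an opiorphin precursor of secretory glands, had 9.23, 10.22 and 9.40 in lactating glands, against 4.74, 4.56, 4.49 and 4.58 in pre-pubertal glands. Its difference was 5.03 ± 0.24, and -0.67 ± 0.60 in nulliparous glands, given without a test since it passed the floor only through lactation arrays. Lao1, an L-amino acid oxidase that yields hydrogen peroxide in mouse milk, rose by 5.33 ± 0.16, Ceacam4 by 6.17 ± 0.20 and carboxypeptidase M (Cpm) by 4.64 ± 0.21. Gjb2, connexin 26 of epithelial gap junctions, rose by 4.41 ± 0.22, arginase 2 (Arg2) by 4.10 ± 0.27, complement C3 by 4.09 ± 0.23 and the sodium-glucose cotransporter Slc5a9 by 4.31 ± 0.25. Il1rn, the antagonist of the interleukin 1 receptor, and kininogen Kng1 also passed the floor only through lactation arrays, with differences of 4.45 ± 0.42 and 4.38 ± 0.44 given as descriptions.

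Among the 30 largest falls Alox15, a lipoxygenase of eosinophils and macrophages, came first, with 5.87, 6.02 and 5.73 in lactating glands, against 10.44, 10.33, 9.79 and 10.46 in pre-pubertal glands. It fell by 4.38 ± 0.19, and the difference in nulliparous glands was -4.72 ± 0.20. Agtr2, an angiotensin receptor that is high in young tissue, was lower by 3.12 ± 0.43, a description since it passed the floor only through pre-pubertal arrays. The proteoglycans Aspn and Gpc3 fell by 3.47 ± 0.32 and 3.11 ± 0.23, and the peptidase inhibitor Pi15 by 4.10 ± 0.34. Genes that fat cells express included Abcd2, a peroxisomal transporter (-3.78 ± 0.18), the activin receptor Acvr1c (-3.53 ± 0.34), retinol-binding protein Rbp4 (-3.19 ± 0.17), Tshr (-3.12 ± 0.18) and Prkar2b (-3.09 ± 0.19). Ccl22, a chemokine of dendritic cells and macrophages, fell by 3.20 ± 0.47.

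The array also carries probe sets for microRNA genes, which read precursor or host RNA and not the mature form. Of 51 tested, 1 rose and 16 fell (median -0.35), a list formed after values were seen. Over all genes tested 21.2% rose and 18.3% fell. Mir21 had 8.26, 8.56 and 7.86 in lactating glands, against 7.92, 7.26, 6.85 and 7.45 in pre-pubertal glands, and was the one that rose (0.85 ± 0.26), a call lost without lactation replicate 1 or 2 or pre-pubertal replicate 5 or 10 (adjusted p 0.0534 to 0.0974). Mir126a, which lies in a gene of endothelium, had 6.86, 7.67 and 7.07 in lactating glands, against 9.60, 9.95, 9.25 and 9.67 in pre-pubertal glands and fell by 2.42 ± 0.22. Mir143, a gene of smooth muscle and stroma, had 8.81, 7.98 and 8.20 in lactating glands, against 10.74, 9.81, 9.20 and 9.45 in pre-pubertal glands, a difference of -1.47 ± 0.35. For Mir21 and Mir143 the mature form of 1 arm, as RefSeq (GRCr8) lists it, is shown with the seed (bases 2 to 8) in capitals, to identify these RNAs.
rno-miR-21-5p: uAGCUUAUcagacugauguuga
rno-miR-143-3p: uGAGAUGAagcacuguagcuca
Their seeds differ.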

How the data were processed

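RNA of whole rat mammary glands was hybridised to Affymetrix arrays, 1 array per sample. The authors deposited log2 values per probe set, normalized with RMA in Affymetrix Expression Console, per the submitters' processing notes. The program version and genome build were not given in the sources used here. RMA sets all arrays to 1 distribution, which narrows differences in total signal between glands.

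Of 36685 probe sets, 18511 carried 1 gene symbol, 575 several and 17599 none, and 18394 of the first kind matched RefSeq genes of GRCr8. For the 291 symbols with several probe sets the brightest was kept. Genes above 7.645 (the median of single-symbol probe sets) in at least 3 of 33 arrays were tested.

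Tests used limma 3.58.1 in R 4.3.3 (lmFit, eBayes with an intensity trend, two-sided, Benjamini-Hochberg over all genes tested). The main fit held the 7 arrays of batch 2. A model of all arrays had stage and batch terms. It included the nulliparous and parous arrays of batch 3, whose RNA was extracted with another kit (Zymo). The nulliparous comparison used contrasts of stage and batch means, fitted over all 33 arrays, which gave its spread. Steps were tested on simulated data. No array was identical to another, and the highest correlation between arrays was 0.9958.

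The 47 gene lists (1172 entries) and the members were chosen with earlier results of these data known, and no list was tested as a set. Named genes are the 30 largest rises and 30 largest falls without overlap of the arrays, and from each list up to 8 genes of smallest adjusted p in each direction and its first 8 symbols. MicroRNA genes, Sfrp1, Hbegf, Wfdc18 and single genes that completed a small count were named after their values were seen. Alternatives were other models, floors, scalings, covariates and leaving out arrays. Leaving out both pre-pubertal arrays rich in lymphocyte genes was added after seeing the data. Sequences came from RefSeq tables.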

Additional observations from a re-analysis of the deposited data

Results flagged for a closer look

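The pre-pubertal arrays of batch 2 were searched for single arrays far from the other 3 by Dixon's criterion for 4 values. The 3 lactation arrays are too few for it. Over 268 genes and list means, 10 stood out, while chance flags about 1 in 20 groups.

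Csn1s2a was 5.77 in pre-pubertal replicate 4, against 5.259 to 5.329 in the other 3 arrays. Cxcr2 was 8.3 in pre-pubertal replicate 9, against 8.72 to 8.789 in the other 3 arrays. Lpo was 7.919 in pre-pubertal replicate 10, against 7.601 to 7.652 in the other 3 arrays. Sfrp1 was 8.335 in pre-pubertal replicate 9, against 8.715 to 8.767 in the other 3 arrays. Slc1a5 was 10.28 in pre-pubertal replicate 9, against 10.56 to 10.58 in the other 3 arrays. Slc7a10 was 9.702 in pre-pubertal replicate 9, against 10.39 to 10.48 in the other 3 arrays. Xdh was 10.43 in pre-pubertal replicate 9, against 10.92 to 10.97 in the other 3 arrays. The amino acid transporters mean was 8.926 in pre-pubertal replicate 10, against 8.813 to 8.832 in the other 3 arrays. The imprinted genes of perinatal growth mean was 9.269 in pre-pubertal replicate 9, against 9.721 to 9.777 in the other 3 arrays. The skeletal muscle mean was 9.907 in pre-pubertal replicate 10, against 6.736 to 7.02 in the other 3 arrays. Replicate 9 had the low value in most of these, and it was also high in B and T cell genes. In the skeletal muscle list the other 3 pre-pubertal arrays were close together, while lactation replicates 1 and 3 were also high.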

How the results depend on the processing

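The count of 4339 genes called in lactating against pre-pubertal glands moved by more than 1.5 times under 4 of the settings tried. It was 2754 (1447 higher and 1307 lower) with the B cell list mean as a covariate and 18 (14 higher and 4 lower) with the luminal list mean. It was 2582 (1364 higher and 1218 lower) at an adjusted p under 0.01 and 1674 (743 higher and 931 lower) where a difference of at least 2-fold was also required. With the floor at the 75th percentile fewer genes were tested, 1269 were lower within batch 2 and 1671 in the model of all arrays. Leaving out each array in turn gave 3282 to 4185 genes, 1752 to 2248 higher and 1530 to 1937 lower. The test against the nulliparous difference passed for 1532 (902 higher and 630 lower) genes at an adjusted p under 0.01. Leaving out pre-pubertal replicates 9 and 10 together was chosen after seeing the data, and it gave 3821 (2013 higher and 1808 lower). Centring each array on its median gave 4506 (2737 higher and 1769 lower), and quantile normalization gave 4179 (2057 higher and 2122 lower). Medians of lists close to 0 changed sign with centring, to 0.04 for amino acid transporters, 0.05 for basal cells and 0.05 for clock genes. In some small lists 1 gene more passed when 1 array was left out. A single gene fell among lactose genes and among luminal genes without pre-pubertal replicate 9, among luminal genes without lactation replicate 1 and among sterol genes without lactation replicate 2, and 1 B cell gene rose without pre-pubertal replicate 9. The number that fell was 2 without lactation replicate 1 in mineral transport and 2 without pre-pubertal replicate 4 in immunoglobulin transfer.

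Of 222 genes named in the text, 211 kept the same result, called or not called, whichever single array was left out. No called gene among them turned its direction in a setting other than the B cell and luminal covariates. Of those called, 6 were not called in the fit of lactation and all 10 pre-pubertal arrays with a batch term, 11 in that fit without it and 3 in the model of all arrays, which called 6 others. With the B cell covariate 35 lost their call, 177 kept the same result, called or not called, and 8 turned. Of the genes that turned, Cd3e, Cd74, Cd8a and Prf1 had not been called in the main fit. The log2 differences were A2m 0.18, Cd3e 1.03, Cd74 0.91, Cd8a 1.23, Lep 0.12, Mki67 0.15, Prf1 2.14 and Prlr -0.30. With the luminal covariate 38 kept the same result, and 30 turned. The 38 include genes that neither fit called, since the luminal covariate left 18 calls among all genes tested. Those that turned upward were A2m 3.05, Axin2 0.98, Ccl19 2.29, Ccl22 2.80, Cldn11 0.12, Cr2 0.59, Grem1 0.29, Lef1 2.41, Lep 1.58, Mki67 3.06, Ms4a1 2.01, Tcf7 1.61, Timd4 0.92 and Top2a 2.09, and those that turned downward were Cidea -0.61, Cldn4 -1.21, Col17a1 -0.99, Egfr -0.64, Ehf -1.48, Epcam -0.89, Erbb3 -0.0604, Hbegf -2.18, Igfbp2 -0.43, Krt7 -2.20, Lgr4 -0.34, Mir21 -1.52, Prlr -0.55, Socs3 -0.54, Tgfb2 -0.81 and Timp1 -0.11. The luminal mean differed between the groups without overlap, so this covariate takes up the group difference. The B cell mean did not overlap between the groups of batch 2 either, and its covariate has the same limit. For the other differences between settings the cause was not tested.

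No paired analysis was possible because the arrays of both groups share no replicate numbers that mark a litter, animal or day. Values carry no detection calls, signals near the background cannot be told from absent RNA, and the number of arrays limits the precision. Lactation was measured in batch 2 alone.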

Other observations

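Further lists were measured in the same fit of lactating against pre-pubertal glands, where 21.2% of all genes tested rose and 18.3% fell. Several counts below are near or under these shares. Of 20 immediate early and heat shock genes listed 16 were tested, 3 rose and 5 fell (median 0.18). Junb, a subunit of the AP-1 transcription factor, had 9.36, 10.50 and 9.29 in lactating glands, against 8.10, 7.93, 8.25 and 7.90 in pre-pubertal glands. It rose by 1.67 ± 0.27 without overlap of the arrays, and lactation replicate 2 was above the other two. Dusp1, a phosphatase of MAP kinases, had 9.13, 9.75 and 8.95 in lactating glands, against 10.95, 10.81, 10.36 and 10.87 in pre-pubertal glands and fell by 1.47 ± 0.21. The orphan receptor Nr4a1 differed by -1.02 ± 0.25 and also fell. Jun and Myc were not called (0.09 ± 0.37 and 0.26 ± 0.33), and both were highest in lactation replicate 2. In nulliparous glands of batch 1, 1 of the 16 genes was higher and 0 were lower than in pre-pubertal glands. Among 8 mast cell genes tested of 14, 1 rose and 4 fell (median -0.56), with the carboxypeptidase Cpa3 at -1.22 ± 0.22 and the tryptase Tpsb2 at -0.87 ± 0.17. Cpa3 lost its call in the fit of lactation and all 10 pre-pubertal arrays with a batch term (-1.22, adjusted p = 0.0718). The 1 mast cell gene that rose was not called without lactation replicate 1 or 2 or pre-pubertal replicate 5 or 10. Of 9 tested genes of neutrophils and eosinophils (20 listed), 1 rose and 4 fell (median -0.33). Lcn2, lipocalin 2, which binds bacterial siderophores and is also made by epithelium, had 13.42, 13.33 and 13.51 in lactating glands, against 11.47, 11.09, 10.46 and 10.79 in pre-pubertal glands and rose by 2.47 ± 0.20, while the chemokine receptor Cxcr2 fell by 1.62 ± 0.19. Of 24 tested interferon response genes (28 listed) 3 rose and 0 fell (median 0.13), with Parp9 at 1.59 ± 0.15. The number of interferon response genes that rose was 1 without lactation replicate 1 or 3 or pre-pubertal replicate 5 and 5 without lactation replicate 2. The model of all arrays called 6 of them and 5 immediate early and heat shock genes higher.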
